A study of Homo sapiens with 6 samples.

Results

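The collapsin response mediator proteins (CRMPs) form a family of 5 genes, CRMP1, DPYSL2, DPYSL3, DPYSL4 and DPYSL5, and all 5 were read from a table of 64253 gene identifiers. They were taken by name. The family was picked out because DPYSL5 differed between the 2 groups of libraries described here, so the difference in DPYSL5 is given as a description with no test, and nothing is supported with it. All 5 members had enough counts to be among the 16091 genes tested.

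CRMPs are cytosolic proteins that resemble the pyrimidine-degrading enzyme dihydropyrimidinase but are not known to act as enzymes of that pathway. They assemble into tetramers, bind tubulin and regulate microtubule assembly and actin organisation, above all in growing axons and dendrites. DPYSL2 (CRMP2) was found as a mediator of the response to semaphorin 3A, which signals through neuropilin and plexin receptors. Kinases such as CDK5 and GSK3B phosphorylate DPYSL2 and lower its affinity for tubulin. DPYSL5 (CRMP5) is the most divergent member, is expressed in the developing nervous system and is known in oncology as the antigen of the paraneoplastic anti-CV2 antibody, seen with small cell lung cancer. DPYSL3 (CRMP4) acts on actin bundling and DPYSL4 (CRMP3) is a lowly expressed neuronal member.

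The samples were poly(A) RNA libraries of NCI-H1299, an established human lung cancer cell line that the labels call a lung adenocarcinoma: 3 of wild type cells and 3 of cells carrying an mCherry-tagged MTSS1 plasmid, MTSS1 being a membrane-binding scaffold of the actin cytoskeleton. These cells, called MTSS1 cells from here on, went through hygromycin selection and cell sorting. HEK293T cells are also named in the text on transfection. The labels name no control plasmid, so effects of MTSS1, its tag, selection and sorting cannot be told apart. The labels do not say whether replicates are separate cultures or whether the MTSS1 cells are 1 clone, and every p-value here therefore reflects library-to-library spread that may be technical.

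Libraries held 13883380 to 29479453 counts. Levels are given as CPM, the count scaled to a fixed library size. MTSS1 itself had 24.2, 18.0 and 24.3 CPM in wild type libraries against 550, 544 and 568 CPM in MTSS1 libraries, which goes with the labels. Wild type replicate 1 and MTSS1 overexpressing replicate 1 stood apart from the other 4 libraries on the first principal component (34.8% of the variance). Of 11 lung epithelial markers, the summed level ranged over 571 to 853 CPM (wild type) and 259 to 470 CPM (MTSS1), most of it KRT8 and KRT18. KRT8 fell (164.8 ± 41.2 to 49.6 ± 19.2 CPM, SD, n = 3; log2 fold change -1.74, edgeR adjusted p = 0.011). It passed in 5 of the 6 fits without 1 library (0.055 without MTSS1 overexpressing replicate 3). KRT18 went from 522 to 299 CPM on average and did not pass (log2 fold change -0.80, edgeR adjusted p = 0.061, or 4.4e-06 blocked). The other 3 tested markers, all low, had fitted values above 0 and did not pass either: NKX2-1 at 1.15, KRT7 at 1.05 and EPCAM at 0.66 (edgeR adjusted p = 0.12, 0.16 and 0.44; 0.022, 0.042 and 0.29 blocked). The median over the 5 tested markers was 0.66, opposite in sign to the change in the sum. What part these markers have in the other results was not tested. The surfactant genes SFTPA1, SFTPB and SFTPD were listed at 0, SFTPC had 1 count, and NKX2-1, the lineage factor of lung adenocarcinoma, averaged 1.20 ± 0.508 CPM (wild type) and 2.63 ± 0.286 CPM (MTSS1; SD, n = 3), so the adenocarcinoma label is not carried by these markers. Summed fibroblast (8 genes), endothelial (5) and immune (8) markers reached at most 10.3, 4.62 and 3.42 CPM in any library. Of their tested members 0 passed edgeR's test (0 also by DESeq2 and at an unadjusted p under 0.05). Of all tested genes these shares were 4.28%, 7.23% and 19.8%. Broadly expressed RPS9 and B2M had only 17 and 34 wild type counts, so counts near 0 in this table do not show that a gene is silent.

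The promoters are shown first, because CRMP1 and DPYSL5 differed most between the groups while DPYSL3 carried most of the family's RNA. RefSeq windows of 300 bases (250 before to 50 after a start, GRCh38.p14) were found for 4 of the 5 members, 9 windows in all. Capitals mark GC boxes (GGGCGG, either strand) and, in 1 window, also a match to the NF-κB consensus, which was looked for because the study's title concerns NF-κB. The first sequence is the downstream one of 2 DPYSL5 starts (chr2:26847882-26848181, plus strand). The next 2 are CRMP1 starts, the upstream one of the pair first (chr4:5888450-5888749 and chr4:5887764-5888063, minus strand), and the last is a DPYSL3 start (chr5:147510019-147510318, minus strand). All are written 5′ to 3′ on the gene's strand.
DPYSL5: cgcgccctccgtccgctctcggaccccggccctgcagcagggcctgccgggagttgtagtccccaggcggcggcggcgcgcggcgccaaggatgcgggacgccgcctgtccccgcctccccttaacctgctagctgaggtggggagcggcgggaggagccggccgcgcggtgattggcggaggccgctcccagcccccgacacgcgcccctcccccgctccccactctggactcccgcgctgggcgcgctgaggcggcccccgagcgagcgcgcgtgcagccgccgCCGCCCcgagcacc
CRMP1 upstream: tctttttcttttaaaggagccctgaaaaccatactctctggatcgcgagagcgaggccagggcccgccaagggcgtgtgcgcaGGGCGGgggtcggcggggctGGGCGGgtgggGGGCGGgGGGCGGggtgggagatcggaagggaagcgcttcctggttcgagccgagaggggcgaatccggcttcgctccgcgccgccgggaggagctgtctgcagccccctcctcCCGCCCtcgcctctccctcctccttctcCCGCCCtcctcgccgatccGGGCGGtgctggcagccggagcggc
CRMP1 downstream: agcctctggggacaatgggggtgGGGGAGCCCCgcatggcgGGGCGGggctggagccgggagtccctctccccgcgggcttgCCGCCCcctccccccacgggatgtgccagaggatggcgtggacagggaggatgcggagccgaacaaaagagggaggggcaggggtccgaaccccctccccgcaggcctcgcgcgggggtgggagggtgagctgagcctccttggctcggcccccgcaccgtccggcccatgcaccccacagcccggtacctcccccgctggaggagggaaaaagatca
DPYSL3: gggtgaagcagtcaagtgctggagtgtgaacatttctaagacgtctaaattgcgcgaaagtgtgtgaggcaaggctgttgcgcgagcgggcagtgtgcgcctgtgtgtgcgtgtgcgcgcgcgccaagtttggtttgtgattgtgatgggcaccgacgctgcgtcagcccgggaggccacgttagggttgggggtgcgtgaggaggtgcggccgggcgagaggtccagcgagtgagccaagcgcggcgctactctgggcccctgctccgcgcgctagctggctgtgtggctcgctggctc

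The DPYSL5 window shown was 79.3% G and C with 44 CpG dinucleotides, against medians of 58.7% and 14 over 35116 windows of all genes. It held 1 GC box, a motif found in 45.0% of all windows. The upstream CRMP1 window shown held 7 GC boxes and the DPYSL3 window shown 0. The other DPYSL3 window, not shown, held 3, and the DPYSL4 window held 8, the most of the 9 windows. The NF-κB consensus (both strands) was matched in 1 of the 9 family windows, the downstream CRMP1 start, shown as GGGGAGCCCC, and in 11.3% of all windows. The TATA box TATAAA was in 0 of the 9, against 11.5% of all windows. The E-box CACGTG was in 1, a CRMP1 start not shown, against 7.26%, and TGACG, the core of the cyclic AMP response element, in 2, CRMP1 and DPYSL3, against 24.6%. The capitals of the NF-κB match and GC boxes do not overlap. CRMP1 has 4 such starts and DPYSL3 and DPYSL5 have 2 each, and counts per gene do not tell which start was used. A match is a description of the letters and not a site, and no match says only that these letters are not in this window.

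DPYSL3 and DPYSL2 made up almost all CRMP RNA of these cells in both groups. Levels were compared between genes as CPM per kilobase of exon (GENCODE release 29, union of exons). In wild type cells DPYSL3 stood at 18.8 ± 2.59, DPYSL2 at 14.6 ± 1.53, DPYSL5 at 0.559 ± 0.169, DPYSL4 at 0.234 ± 0.0744 and CRMP1 at 0.178 ± 0.0120 CPM per kb (SD, n = 3). DPYSL3, a member linked to actin, was at or above 83.6% of the 15883 tested genes with an exon length, DPYSL2 at or above 78.7%, and DPYSL5, DPYSL4 and CRMP1 at or above 15.7%, 6.78% and 4.73%.

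The order of the top 3 was the same in each of the 6 libraries, with DPYSL3 above DPYSL2 by 1.23 to 1.42 times and DPYSL5 far below both. With the longest transcript as length, DPYSL3 was still above DPYSL2 in each library, by 1.06 to 1.23 times. DPYSL4 and CRMP1, at the bottom, overlapped between libraries in both groups, so their order is not given. With the longest transcript their wild type levels were 0.272 and 0.330 CPM per kb, in the opposite order.

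In MTSS1 cells the same levels were 21.4 ± 0.972 for DPYSL3, 16.0 ± 0.302 for DPYSL2, 2.58 ± 0.462 for DPYSL5, 0.422 ± 0.0751 for CRMP1 and 0.311 ± 0.114 for DPYSL4. DPYSL5 was then at or above 39.5% of genes, and DPYSL3 was 6.65 to 10.1 times DPYSL5, against 30.7 to 43.4 times in wild type libraries. The DPYSL5 share of the summed family level was 1.77%, 1.24% and 1.79% in the wild type libraries and 6.11%, 7.58% and 5.28% in the MTSS1 libraries. The DPYSL3 share was 53.8% to 55.6% in wild type and 50.4% to 54.0% in MTSS1 libraries. The share of DPYSL2 was 41.3% to 43.7% in wild type against 37.9% to 39.9% in MTSS1 libraries. Its own mean level did not fall with its share (14.6 CPM per kb in wild type and 16.0 in MTSS1 libraries), as a share also moves with the other members. In bulk RNA, a change in how many cells hold a transcript and a change in its amount per cell cannot be told apart.

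**Figure D1:**
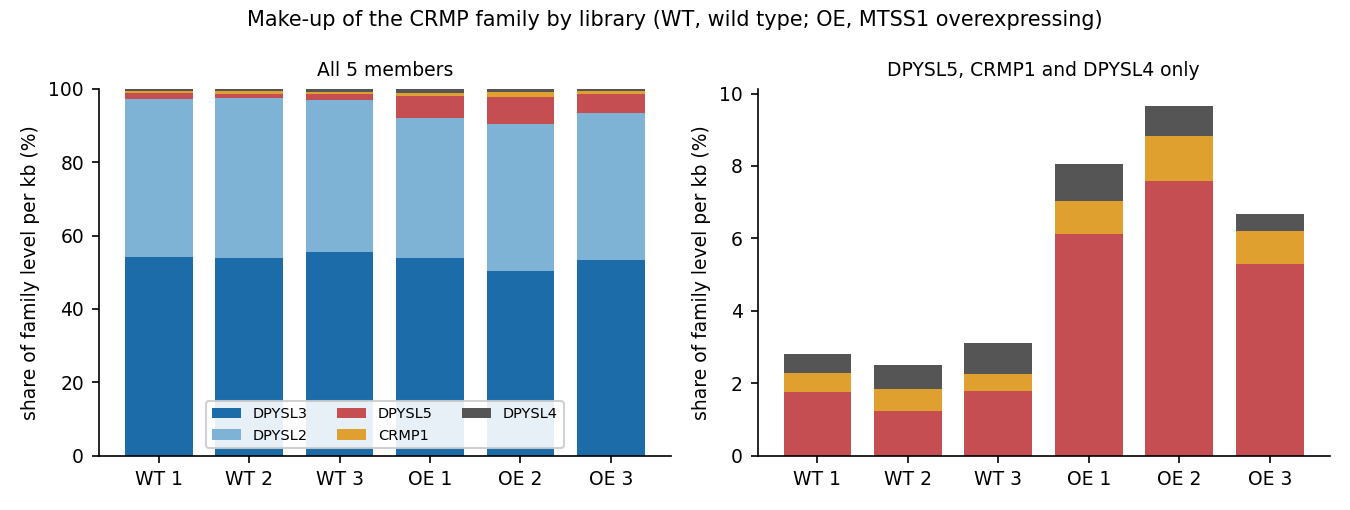
Share of each CRMP member in the summed family level (CPM per kb of exon, %), by library, for all 5 members (left) and for DPYSL5, CRMP1 and DPYSL4 alone (right, with its own axis). DPYSL3 and DPYSL2 fill most of each bar, and the DPYSL5 segment is 1.24% to 1.79% in wild type against 5.28% to 7.58% in MTSS1 libraries.

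DPYSL5 (ENSG00000157851, chromosome 2, 26847747 to 26950351, GRCh38, plus strand) was the member that drew attention to the family. Wild type libraries had 86, 78 and 126 counts (4.56, 2.58 and 4.73 CPM). MTSS1 libraries had 243, 564 and 379 counts (17.8, 21.7 and 15.2 CPM). Each overexpressing library was above each wild type library, as in 12.1% of all tested genes. Wild type replicate 2 was the lowest and MTSS1 overexpressing replicate 2 the highest. Means were 3.96 ± 1.20 and 18.2 ± 3.27 CPM (SD, n = 3), a fitted ratio of 4.64 (log2 fold change 2.21, SE 0.24, from the edgeR fit over all genes). That ratio ranked 19th of 16091 tested genes and 7th of the 10984 with a mean of at least 5 CPM, and 0.118% of all tested genes reached a ratio as high. With 1 library left out, the log2 fold change lay between 1.97 and 2.38, and it was 2.34 without both libraries that stood apart.

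The exact 95% Poisson interval of the lowest library was 61.7 to 97.3 counts and that of the highest 518 to 613. Such intervals hold counting error alone, as PCR copies without molecular identifiers are counted as separate reads. Libraries with neighbouring title numbers gave ratios of 3.91, 8.40 and 3.21.

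CRMP1 (ENSG00000072832, chromosome 4, 5748084 to 5893058, minus strand), a mediator of semaphorin signals in neurons, was low in all libraries. Wild type libraries had 21, 31 and 26 counts (1.11, 1.03 and 0.976 CPM) and MTSS1 libraries 30, 77 and 55 (2.20, 2.96 and 2.20 CPM). The groups did not overlap, as in 25.5% of all tested genes, 12.1% with the MTSS1 libraries higher. The log2 fold change of 1.25 (SE 0.30, n = 3 per group) did not pass edgeR's quasi-likelihood test (adjusted p = 0.052, Benjamini-Hochberg over all genes), and it was higher in 3 of 3 MTSS1 libraries. Of all tested genes, 2.45% had an absolute log2 fold change at least as large.

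CRMP1 lay at the threshold, and other fits gave other sides of it. The edgeR adjusted p was 0.012 with a block of neighbouring title numbers, 0.043 without the filter on low counts and 0.045 with an offset for neighbouring genes. DESeq2 gave an adjusted p of 0.043, and with 1 library left out the edgeR values lay between 0.11 and 0.17. Without both libraries that stood apart the log2 fold change was 1.36 (edgeR adjusted p = 0.20). The exact 95% interval was 21.1 to 44.0 counts in wild type replicate 2 and 60.8 to 96.2 in MTSS1 overexpressing replicate 2. In replicate 1 the intervals overlapped, as that of wild type ended at 32.1 counts and that of MTSS1 overexpressing began at 20.2. In replicate 3 they did not, with wild type ending at 38.1 counts and MTSS1 overexpressing beginning at 41.4. These are raw counts from libraries of unlike depth, and the intervals hold counting error alone.

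The exons of CRMP1 share 159 bases with those of EVC, a cilium gene on the opposite strand, and although the library kit marks strand, no source used here gives the strand setting of the counting. EVC averaged 80.9 CPM (wild type) and 68.2 CPM (MTSS1), opposite in sign to CRMP1 (log2 fold change -0.25, edgeR adjusted p = 0.23, or 0.011 blocked). The part of shared reads in the CRMP1 counts was not tested.

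DPYSL3 (ENSG00000113657, chromosome 5, 147390811 to 147510056, minus strand) had 2668, 3427 and 3955 counts in wild type against 2173, 3798 and 3882 in MTSS1 libraries. This was 141, 113 and 148 CPM against 160, 146 and 155 CPM, and the groups overlapped. The log2 fold change of 0.19 (SE 0.11) did not pass the test (edgeR adjusted p = 0.37, or 0.034 blocked). Wild type replicate 2 was the lowest library, as it was for DPYSL5 and DPYSL2.

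DPYSL2 (ENSG00000092964, chromosome 8, 26514022 to 26658178, plus strand), the semaphorin 3A mediator, stood at 114, 93.9 and 112 CPM in wild type against 114, 118 and 118 CPM in MTSS1 libraries. The groups were separated only by the small gap between 114.07 CPM in wild type replicate 1 and 114.27 CPM in MTSS1 overexpressing replicate 1. Of all tested genes, 25.5% had no overlap between groups. The log2 fold change was 0.13 (SE 0.09, edgeR adjusted p = 0.49). Its exons share 71 bases with PNMA2 on the opposite strand, which averaged 35.7 and 45.6 CPM (fitted log2 change 0.35, edgeR adjusted p = 0.16, or 0.0071 blocked).

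DPYSL4 (ENSG00000151640, chromosome 10, 132186900 to 132205776, plus strand) was the thinnest measurement, with 11, 19 and 27 counts in wild type against 18, 27 and 15 in MTSS1 libraries. These were 0.583, 0.628 and 1.01 CPM against 1.32, 1.04 and 0.600 CPM, and the groups overlapped. The log2 fold change was 0.38 with an SE of 0.45 (edgeR adjusted p = 0.72). No difference was detectable at this depth, with an exact interval of 5.49 to 19.7 counts in the lowest library. Without both libraries that stood apart the log2 fold changes were 0.0028 for DPYSL4, 0.20 for DPYSL3 and 0.20 for DPYSL2, and none passed.

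**Figure D2:**
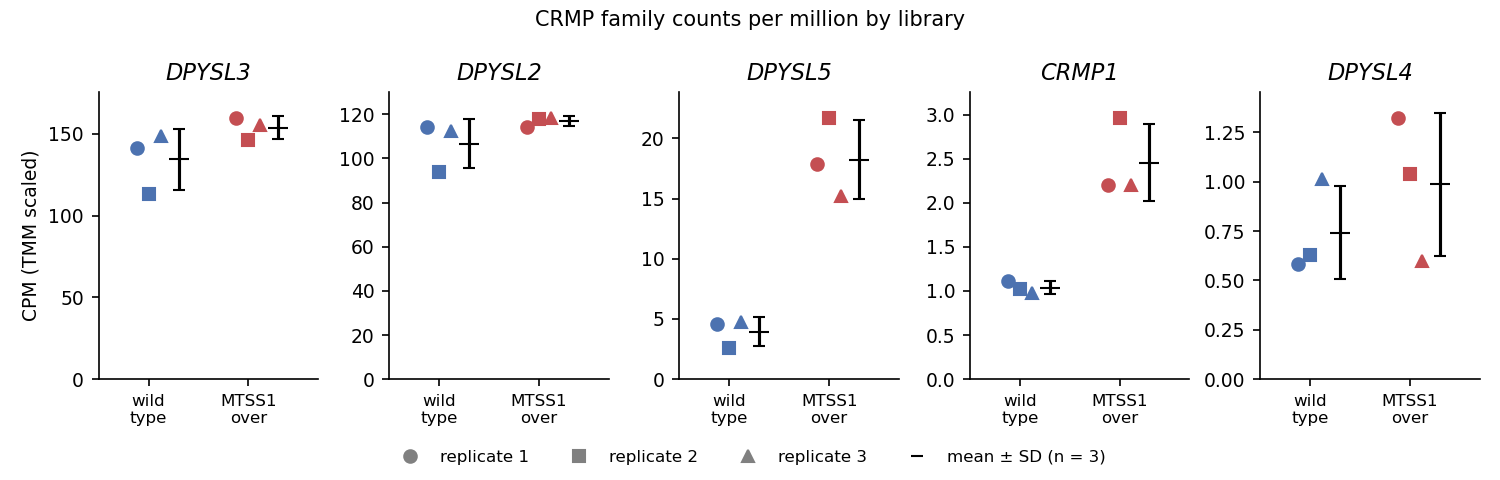
CPM (TMM scaled, linear axes from 0, 1 panel and scale per gene) of the 5 CRMP genes in each library, with the mean and SD of each group (n = 3). DPYSL5 stands at 2.58 to 4.73 CPM in wild type against 15.2 to 21.7 CPM in MTSS1 libraries. CRMP1 is low and its groups do not overlap, as in 25.5% of all tested genes, while DPYSL3 and DPYSL4 overlap.

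Of the 4 members other than DPYSL5, 0 passed edgeR's test at an adjusted p under 0.05, where 4.28% of all 16091 tested genes did, 1.82% higher and 2.45% lower. At an unadjusted p under 0.05 it was 1, CRMP1 (19.8% of all genes), DESeq2 called 1 (7.23%), and edgeR with the block called 2, CRMP1 and DPYSL3 (22.7%; 10.7% higher and 12% lower). All 5 fitted log2 fold changes were above 0, with a median of 0.38 against 0.00 over all tested genes. The family was chosen on the same contrast, so nothing is read from these counts.

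The members lie on 5 chromosomes, and the genes around each were read for a shared shift of the region. The median log2 fold change of the 50 nearest tested genes was -0.02 around DPYSL5, -0.21 around CRMP1, -0.03 around DPYSL3 and -0.05 around DPYSL2. It was 0.05 over the 40 around DPYSL4, which lies near the end of its chromosome. Around DPYSL5 0 neighbours were called higher and 1 lower, and 1 of 50 had a higher fitted value than DPYSL5 itself, SLC30A3, a zinc transporter gene that did not pass the test. None of the 50 neighbours of CRMP1 had a fitted value above its own, and 3 of them were called lower. The same held for the 40 neighbours of DPYSL4, a member that did not pass, with 2 of them called lower. With the neighbour median as an offset the log2 fold change was 2.24 for DPYSL5 and 1.45 for CRMP1.

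**Figure D3:**
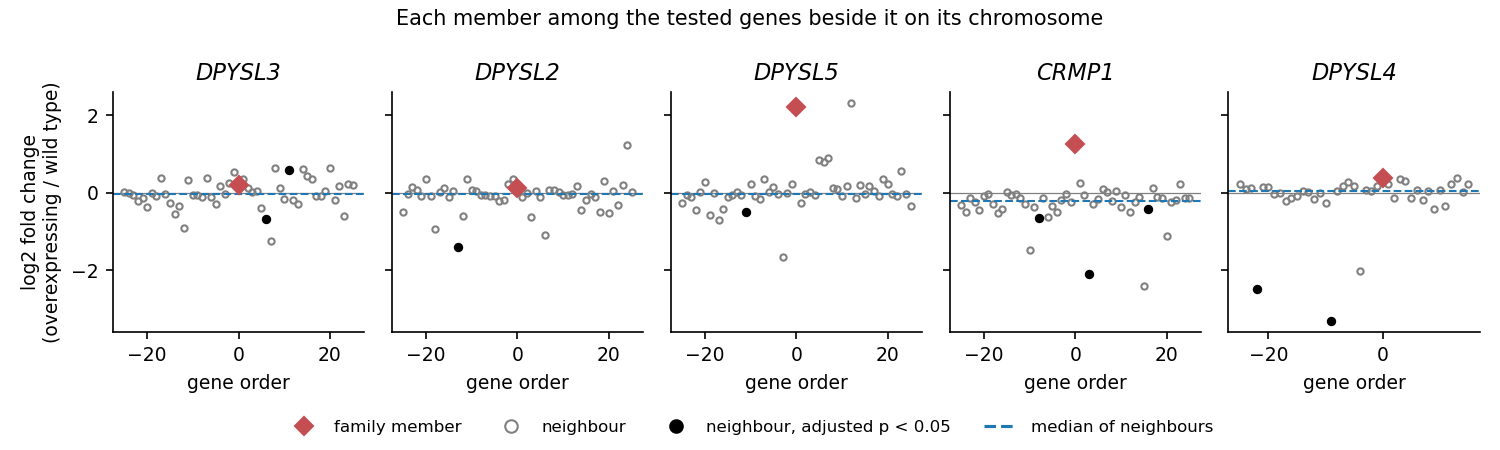
Log2 fold change (overexpressing over wild type) of each CRMP gene (diamond) and of up to 25 tested genes on each side of it (circles, filled where the edgeR adjusted p is under 0.05), in order along the chromosome. The DPYSL5 diamond at 2.21 stands over a neighbour median of -0.02, and the neighbours of CRMP1 have a median of -0.21.

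The ligands and receptors through which semaphorins reach CRMPs did not pass edgeR's main test in either direction, but some passed in other fits. Of 26 listed semaphorins, neuropilins, plexins and effectors, 20 were tested. By edgeR's adjusted p 0 were higher and 0 lower, where 4.28% of all tested genes passed. At an unadjusted p under 0.05 it was 6 (19.8% of all genes), and DESeq2 called 5 (7.23%). With the block 4 were higher (10.7% of all genes) and 2 lower (12%). The median log2 fold change was 0.05. The ligand gene SEMA3A stood at 20.9 ± 0.853 CPM in wild type against 19.5 ± 2.30 CPM in MTSS1 cells (SD, n = 3; edgeR adjusted p = 0.76). Its receptor gene NRP1 stood at 9.12, 4.33 and 11.2 CPM against 7.34, 5.84 and 7.76 CPM, which overlapped (edgeR adjusted p = 0.75).

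The 4 semaphorin genes with the smallest p-values did not overlap between groups, as in 25.5% of all tested genes, but did not pass. They were picked by p-value in the same contrast, so nothing is read from their lack of overlap. The ligand gene SEMA3C stood at 57.5, 61.1 and 65.9 CPM in wild type against 47.5, 40.4 and 50.3 CPM in MTSS1 libraries (log2 fold change -0.42, edgeR adjusted p = 0.060, or 0.0017 blocked; 0.024 with the neighbour offset). MICAL1, an actin-oxidising enzyme that acts downstream of plexins, had a fitted log2 change of -0.41 (edgeR adjusted p = 0.064, or 7.6e-04 blocked) among neighbours with a median of -0.23. The plexin gene PLXNA1 had 0.44 (edgeR adjusted p = 0.074, or 1.1e-04 blocked) and the neuropilin gene NRP2 0.59 (edgeR adjusted p = 0.075, or 0.0045 blocked). PLXNA3 on the X chromosome had 0.57 (edgeR adjusted p = 0.096, or 9.8e-04 blocked), while its neighbours had a median of 0.68 and its value with the offset was -0.11.

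Enzymes that modify or cleave CRMPs passed about as often as genes in general. Of 24 listed, 21 were tested, 0 rose, 1 fell and 20 did not pass (0 and 5 blocked), where 4.28% of all tested genes passed and 22.7% did so blocked. The median log2 fold change was -0.03. The gene that fell was CAPN2, a calcium-activated protease of the calpain family. It stood at 430, 368 and 414 CPM in wild type against 321, 301 and 298 CPM in MTSS1 libraries. Its groups did not overlap, as in 25.5% of all tested genes (log2 fold change -0.40 with an SE of 0.09, edgeR adjusted p = 0.0345). Its call was lost when neighbours set the offset (edgeR adjusted p = 0.053) and in 5 of the 6 fits without 1 library, all but that without wild type replicate 2 (highest 0.13). Without both libraries that stood apart, 0 of these genes passed.

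The tested kinase genes of CRMPs did not pass. The Src family kinase genes YES1 and FYN had log2 fold changes of -0.32 and -0.36 (edgeR adjusted p = 0.063 and 0.064; 9.0e-04 and 0.0012 blocked), among neighbours with medians of -0.25 and -0.18. GSK3B, the kinase that phosphorylates primed DPYSL2, stood at 138 ± 7.63 and 119 ± 4.86 CPM (SD, n = 3; edgeR adjusted p = 0.16, or 0.0083 blocked). CDK5, which primes that site, stood at 16.3 ± 2.81 and 19.7 ± 1.41 CPM (edgeR adjusted p = 0.34).

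Most tubulin and cargo genes of the CRMPs did not pass the test. Of 31 listed tubulins, kinesins and binding partners, 28 were tested, 3 rose, 2 fell and 23 did not pass (6 and 4 blocked), where 4.28% of all tested genes passed and 22.7% did so blocked, and the median log2 fold change was 0.07. CYFIP1, which DPYSL2 links to kinesin as part of the WAVE actin regulator, fell from 91.9, 105 and 89.6 CPM to 63.5, 56.3 and 59.2 CPM (log2 fold change -0.68 with an SE of 0.09, edgeR adjusted p = 0.0060). It passed in each of the 6 fits without 1 library. Its neighbours on chromosome 15 had a median of -0.51, and relative to them its log2 fold change was -0.17 (edgeR adjusted p = 0.42). Its paralog CYFIP2 rose from 4.51, 5.76 and 6.01 CPM to 9.99, 10.7 and 9.37 CPM (log2 fold change 0.88 with an SE of 0.17, edgeR adjusted p = 0.023; 0.039 with the offset), among neighbours with a median of 0.03. It passed in 0 of the fits without 1 library (highest edgeR adjusted p 0.082).

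The neuronal kinesin heavy chain gene KIF5C rose from 27.1, 19.3 and 23.7 CPM to 38.4, 31.9 and 38.8 CPM (fitted log2 change 0.64, edgeR adjusted p = 0.041). The tubulin gene TUBB2B, which is abundant in developing neurons, rose from 19.7, 19.3 and 20.7 CPM to 27.2, 33.3 and 29.5 CPM (fitted log2 change 0.59, edgeR adjusted p = 0.024). TUBB2B has a near-identical copy, TUBB2A, so its count is uncertain. The tubulin gene TUBB6 fell, with 612, 417 and 569 CPM against 384, 283 and 347 CPM (log2 fold change -0.66, edgeR adjusted p = 0.047), with 0.21 as its edgeR adjusted p under the neighbour offset. Each of these 3 calls was kept in 1 of the 6 fits without 1 library: KIF5C without wild type replicate 1, TUBB2B without MTSS1 overexpressing replicate 1 and TUBB6 without wild type replicate 2. The highest edgeR adjusted p was 0.13 for KIF5C, 0.079 for TUBB2B and 0.15 for TUBB6. Of the whole list, 1 gene passed without both libraries that stood apart.

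Neuronal genes outside the family also passed about as often as genes in general. Of 26 listed, 17 were tested, 1 rose, 0 fell and 16 did not pass (1 and 3 blocked), against the same 4.28% and 22.7% of all tested genes, and the median log2 fold change was 0.05. The summed level was 944 to 1049 CPM in wild type against 972 to 1000.3 CPM in MTSS1 libraries. The list also holds REST and its corepressor RCOR1, which are not markers of neurons. Both are part of the tested genes, the median and the sum, with RCOR1 at 136 CPM (wild type) and 146 CPM (MTSS1) on average. The neurofilament gene NEFH rose from 28.6, 27.0 and 30.9 CPM to 44.1, 40.4 and 51.6 CPM (fitted log2 change 0.65, edgeR adjusted p = 0.019), with 2 of the 6 fits without 1 library keeping the call, those without MTSS1 overexpressing replicates 1 and 2 (highest 0.067), and 0 neuronal genes passing without both libraries that stood apart. The secretory granule gene CHGB had a fitted log2 change of -0.64 (edgeR adjusted p = 0.097, or 0.0065 blocked) and the synaptic gene SNAP25 of -0.53 (edgeR adjusted p = 0.15, or 0.032 blocked). The proneural factor NEUROD1 had 39 and 11 pooled counts. REST, the repressor of neuronal genes in other cell types, stood at 81.4 ± 7.45 and 76.3 ± 3.31 CPM (SD, n = 3; edgeR adjusted p = 0.64). CHGA and MYT1 were listed at 0 in all 6 libraries.

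The pyrimidine pathway, from which the family takes its dihydropyrimidinase-like names, gave 0 higher and 0 lower of 7 tested genes by edgeR. Of all tested genes 4.28% passed, so few calls would be looked for among 7. At an unadjusted p under 0.05 it was 1 (19.8% of all genes), and DESeq2 called 0 (7.23%). With the block 2 were higher (10.7% of all genes) and 0 lower (12%). The true dihydropyrimidinase gene DPYS had 7 and 2 pooled counts and was not tested. DPYD, which starts pyrimidine breakdown, stood at 21.6 ± 0.774 and 23.8 ± 0.585 CPM (SD, n = 3; edgeR adjusted p = 0.53). UPB1, which ends it, had 53 and 16 pooled counts (edgeR adjusted p = 0.17). In synthesis, DHODH had a fitted log2 change of 0.34 (edgeR adjusted p = 0.26, or 0.029 blocked) and CAD of 0.17 (edgeR adjusted p = 0.40, or 0.025 blocked).

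**Figure D4:**
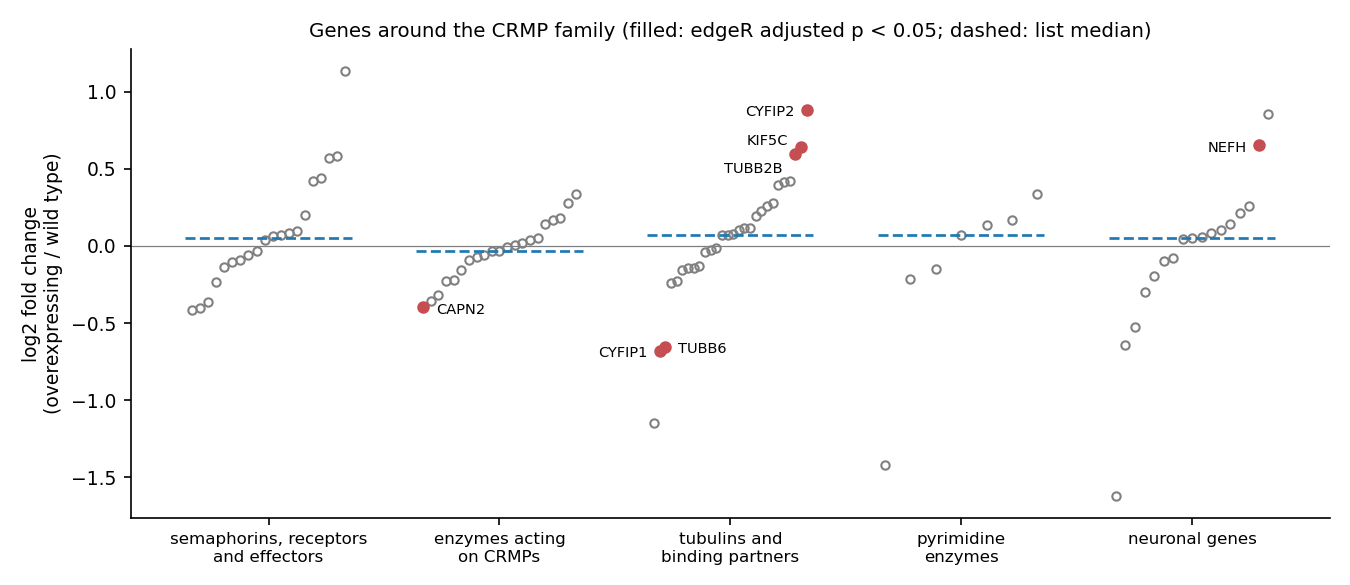
Log2 fold change (overexpressing over wild type) of the tested genes of 5 lists around the CRMP family, sorted within each list; filled circles passed edgeR's test at an adjusted p under 0.05 and dashed lines are list medians. The list medians lie between -0.03 and 0.07, and the filled genes lie on both sides of 0.

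The genes whose profiles were most like that of DPYSL5 were ranked by Pearson's r of log2 CPM over the 6 libraries. The 6 libraries fall into the same 2 groups for each gene, so r takes in the group difference that singled out DPYSL5 and is given as a description with no p. Of 10814 genes with a symbol and a mean of at least 5 CPM, 453 reached an r of 0.9 and 34 of 0.98. The 6 highest were TIMELESS, a replication fork protein (r = 0.998), the kinase gene RPS6KA1 (0.995), the membrane-curving amphiphysin gene AMPH (0.994), the G protein gene GNAO1 (0.993), AKR1E2 (0.993) and the ubiquitin ligase gene NEDD4L (0.993). Among members, CRMP1 had an r of 0.961, and MTSS1 had 0.974.

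Likeness by r takes no account of the size of a difference, and the 6 genes ranged widely in it. AMPH stood at 3.55, 2.28 and 4.02 CPM in wild type against 20.8, 27.8 and 21.8 CPM in MTSS1 libraries (log2 fold change 2.85). GNAO1 stood at 2.60, 1.49 and 2.63 CPM against 6.76, 9.95 and 7.32 CPM (log2 fold change 1.85). In both, as in DPYSL5, wild type replicate 2 was the lowest and MTSS1 overexpressing replicate 2 the highest library. Picking genes by r over these libraries favours such a shared order, so nothing is read from it. TIMELESS went from 240 to 312 CPM on average (log2 fold change 0.38), and RPS6KA1 from 21.2 to 33.6 CPM (0.67). AMPH, GNAO1, TIMELESS and RPS6KA1 passed edgeR's test (adjusted p = 7.2e-04, 0.0085, 0.027 and 0.022), in the same contrast that chose DPYSL5. TIMELESS did not pass when any 1 library was left out, nor relative to its neighbours (edgeR adjusted p = 0.10). RPS6KA1 passed in 1 of those 6 fits, that without wild type replicate 1. AKR1E2 and NEDD4L had fitted values of 0.37 and 0.29, neither past the edgeR threshold (adjusted p = 0.24 and 0.085).

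**Figure D5:**
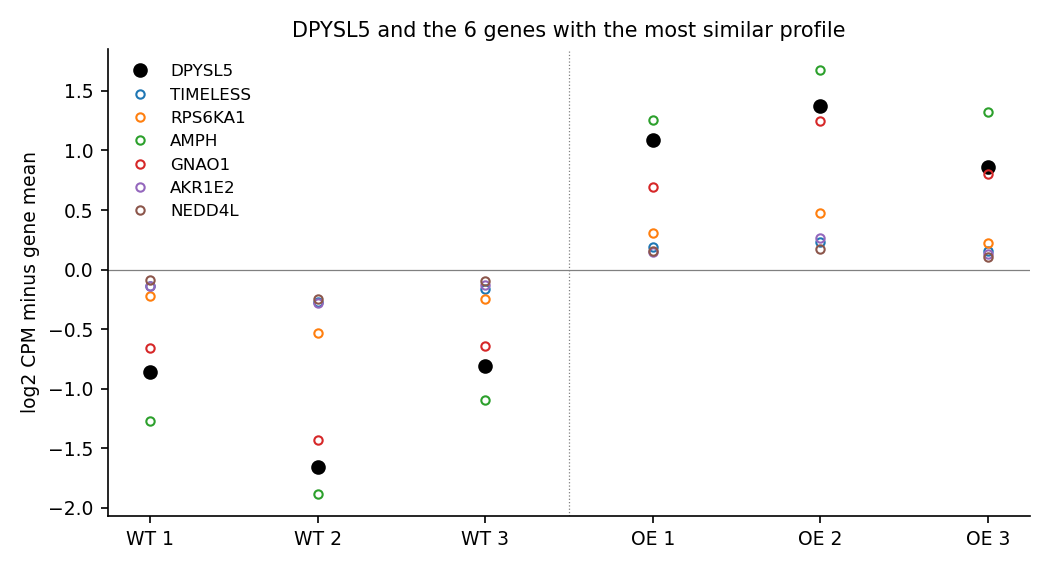
Log2 CPM minus each gene's mean over the 6 libraries, for DPYSL5 (filled) and the 6 genes with the highest Pearson r to it (open). All 7 genes are lowest in wild type replicate 2 (WT 2) and highest in MTSS1 overexpressing replicate 2 (OE 2), while AMPH, DPYSL5 and GNAO1 span a wider range than the other 4. The 6 genes were picked by r over these same libraries, so the shared order is not a separate result.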

How the data were processed

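RNA was measured in 3 wild type and 3 MTSS1-overexpressing NCI-H1299 libraries. The authors deposited unnormalised counts for each Ensembl gene identifier. Per the submitters' processing notes, bcl2fastq, HISAT2 2.1.0, HTSeq and GRCh38 were used, and no source used here names the annotation release or strand setting. Symbols came from a name table (40995 identifiers) or GENCODE release 29 (486), which also gave GRCh38 coordinates and exon lengths. Promoter sequences are from RefSeq (GRCh38.p14).

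Counts were scaled by TMM, filtered with filterByExpr and tested, two-sided, with edgeR 4.0.16 (glmQLFit, glmQLFTest; R 4.3.3), with Benjamini-Hochberg adjustment over 16091 genes and a threshold of 0.05. The main edgeR fit and a fit with an offset were tried on simulated counts that held no batch or block. The other fits were not tried in this way. Alternatives were DESeq2 1.42.0, RLE and unscaled libraries, no filter, a neighbour offset, omitted libraries and a block. Libraries with neighbouring title numbers were used as the block, though the labels do not say that they share a batch. Their deviations from the group means correlated across genes at 0.66, 0.34 and 0.38. Libraries without neighbouring numbers were not compared in this way, so these values do not show that this pairing is the right one. The likeness measure used log2 CPM with a prior count of 2.

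The members and lists were chosen with earlier results of these data known. Genes were named by rule: the 5 members, MTSS1, up to 4 genes per list by smallest adjusted p, the 6 most like DPYSL5 and overlapping genes. SEMA3A, NRP1, PLXNA3, CDK5, REST, DPYS, TUBB2A, TUBB6, SLC30A3, EPCAM, RPS9, B2M and genes given only as counts near 0 were chosen after their values were seen.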

Additional observations from a re-analysis of the deposited data

How the results depend on the processing

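DPYSL5 kept its direction and size in 13 alternatives, with a log2 fold change between 1.97 and 2.38, which was also its range with 1 library left out. DPYSL2 and DPYSL4 stayed above 0 and did not pass in any of 13 alternatives, with ranges of 0.05 to 0.18 and 0.14 to 0.67 when 1 library was left out, and DPYSL4 was at 0.0028 without both libraries that stood apart. DPYSL3 passed with the replicate block (0.20; 0.08 to 0.27 without 1 library). CRMP1 passed without the filter (1.25), with the block (1.24), with the neighbour offset (1.45) and by DESeq2 (1.25), and lay between 1.09 and 1.32 without 1 library. The number of changed genes was 688, 1489 without the filter, 3651 with the block, 1188 by DESeq2, 145 to 346 without 1 library and 132 without both libraries that stood apart, an alternative added after seeing the data. The neighbour offset for the lists was also added then.

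The calls among semaphorin genes were 0, and 1 with library totals only, 5 without the filter, 6 with the block, 5 by DESeq2, 1 with the offset and 0 without any 1 library. Among CRMP-modifying enzymes they were 1, and 4 without the filter, 5 with the block, 3 by DESeq2, 0 with the offset, 0 without both libraries that stood apart and 0 to 1 without 1 library. Among tubulins and partners they were 5, and 10 with the block, 3 with the offset, 1 without those 2 libraries and 1 to 2 without 1 library. Pyrimidine genes gave 0, and 2 with the block. Neuronal genes gave 1, and 3 without the filter, 4 with the block, 0 without those 2 libraries and 0 to 1 without 1 library. With the longest transcript as length, mean levels over the 6 libraries were 2.13 for DPYSL5, 0.555 for CRMP1, 26.3 for DPYSL3 and 23.3 CPM per kb for DPYSL2. The neighbour median of DPYSL5 was 0.016 with 10 genes on each side.

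Over 38 named genes outside the family, 397 of 493 alternative values kept direction and side of the threshold, 54 lost the call, 39 gained it and 3 reversed: SEMA3A (-0.14 to 0.0072 without 1 library, above 0 without MTSS1 overexpressing replicate 1), NRP1 (-0.55 to 0.064, above 0 without wild type replicate 3) and PLXNA3 (-0.11 with the offset). The cause was not tested. DPYSL4 and CRMP1 had under 100 counts in every library, and how far depth bears on their calls was not tested. Adjusted p-values without the filter can be far smaller than in the other fits (1.6e-55 for KRT8, against 0.011 with it).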

Other observations

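Some genes of the lists fell under the filter on low counts and so were not tested above. RBFOX3, a neuronal splicing regulator, had 3, 26 and 4 counts in the wild type libraries and 0 in each overexpressing library, with most of its counts in wild type replicate 2. NTRK2, the BDNF receptor gene whose transport DPYSL2 serves in axons, had 3, 7 and 9 counts in wild type and 0 in overexpressing libraries, and the exact 95% interval of the pooled ratio of wild type to overexpressing starts at 3.98. PLXNA2 had 7, 18 and 3 counts in wild type and 2, 1 and 1 in overexpressing libraries, most of them in wild type replicate 2. Its groups overlapped, with 0.113 CPM in wild type replicate 3 and 0.147 CPM in MTSS1 overexpressing replicate 1. Pooled, it had 28 and 4 counts, a ratio of 5.97 (exact 95% interval 2.09 to 23.4). Both intervals cover counting error only. Without the filter the edgeR adjusted p was 0.27 for PLXNA2, 0.055 for NTRK2 and 0.0034 for RBFOX3. MAPT, the axonal microtubule protein gene, was listed at 0 in all 6 libraries. These genes were chosen after their values were seen.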
